A study of Mus musculus with 20 samples.

Results

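The genes described here are 10 metalloproteases of the ADAM and ADAMTS families, namely Adam8, Adam9, Adam10, Adam12, Adam15, Adam17, Adam19, Adamts1, Adamts2 and Adamts5. They were taken by name from the 52783 mouse genes of the table, and all 10 were found by matching Ensembl identifiers to symbols. RNA was sequenced from cells of mammary tumours grown from 66cl4 or 67NR cells, 2 mouse lines related to 4T1. Tumours of 66cl4 metastasise to the lungs, whereas those of 67NR do not. In each of 10 young adult female BALB/cJ mice, 1000000 cells of 1 line had been injected into the mammary fat pad, and the tumour was dissociated with enzymes and sorted into CD45+ and CD45- cells. The 4 groups are therefore 66cl4 CD45+, 66cl4 CD45-, 67NR CD45+ and 67NR CD45-, with 5 animals in each and 1 library per animal and gate. The labels name no deletion and no drug in any group. CD45, the product of Ptprc, is found on the surface of leukocytes. The CD45+ gate thus holds immune cells, and the CD45- gate holds the injected tumour cells together with the host's stromal and vessel cells. Each tumour type rests on a single injected line. The title and the cell type recorded for the libraries of 66cl4 animals 5 and 6 name opposite gates, and the title was followed.

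ADAM proteases are mostly anchored in the cell membrane, where a zinc-dependent catalytic domain cuts the outer part of other membrane proteins and releases it, a process called shedding. ADAMTS proteases lack the membrane anchor. They are secreted, bind the extracellular matrix through thrombospondin type 1 repeats, and cut proteoglycans or trim procollagens. In tumours both families are studied for the release of growth factors and cytokines and for the remodelling of matrix.

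Depth was 12960000 to 28080314 estimated counts per library. Values below are normalised counts, that is, estimated counts divided by a size factor for each library, and 3 counts, the limit that a count of 0 allows, correspond to 1.87 to 4.68 normalised counts, which covers counting error only. Ptprc was 15890 to 28449 normalised counts in CD45+ libraries and 10.6 to 473 in CD45- libraries, and 5 of 5 animals of either tumour had more of it in the CD45+ library, those with conflicting labels included. Fold changes are on the log2 scale with the standard error, and p-values are from edgeR's quasi-likelihood test, adjusted by Benjamini-Hochberg over all genes tested. Genes past both an adjusted p of 0.05 and a log2 fold change of 1 in either direction are referred to as called. All measurements are of bulk RNA, in which fewer cells of a type and less RNA per cell cannot be told apart.

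Of the 10 proteases, Adam8 had the largest difference between immune cells of metastatic and non-metastatic tumours, and Adamts5 and Adam19 had the largest differences between their non-immune cells. In CD45+ cells 9 of the 10 were tested, and 2 were higher in 66cl4 (Adam8 and Adamts5) and 0 lower. DESeq2's Wald test, which tested all 10, also called 0 lower. The number lower at an unadjusted p under 0.05 was 0 in edgeR and 1 in DESeq2, namely Adamts1. Of all 14676 genes tested there, 5.01% were called higher in 66cl4 and 6.82% lower. In CD45- cells all 10 were tested, and 1 was higher in 66cl4 (Adamts5) and 3 were lower (Adam12, Adam19 and Adamts2), where 13.2% of 14844 genes were called higher and 18.9% lower. The median log2 fold change of the tested proteases was 0.49 in CD45+ and -0.13 in CD45- cells, and that of all genes tested was 0.0098 and -0.0091. The 10 proteases were chosen with earlier results of these data known, so their counts and medians can reflect that choice. Libraries of the 2 tumours did not overlap for 4 of the 9 proteases in CD45+ cells and for 6 of the 10 in CD45- cells, where the same held for 15.1% and 52.9% of all genes tested.

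The secreted proteases were lower in immune than in non-immune cells of either tumour, and Adam8 was higher. In 66cl4 tumours Adam8, Adam10, Adam17 and Adam19 were higher in CD45+ cells, and Adamts1, Adamts2 and Adamts5 were lower. That is 4 higher and 3 lower of 10, where 23.9% of 14916 genes were called higher and 20.5% lower. In 67NR tumours Adam8 was higher in CD45+ cells, and Adam12, Adamts1, Adamts2 and Adamts5 were lower, which is 1 higher and 4 lower, where 20.2% of 15063 genes were called higher and 19.6% lower. The 3 secreted proteases had lower levels in the CD45+ than in the CD45- library of each of the 5 animals of either tumour.

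**Figure D1:**
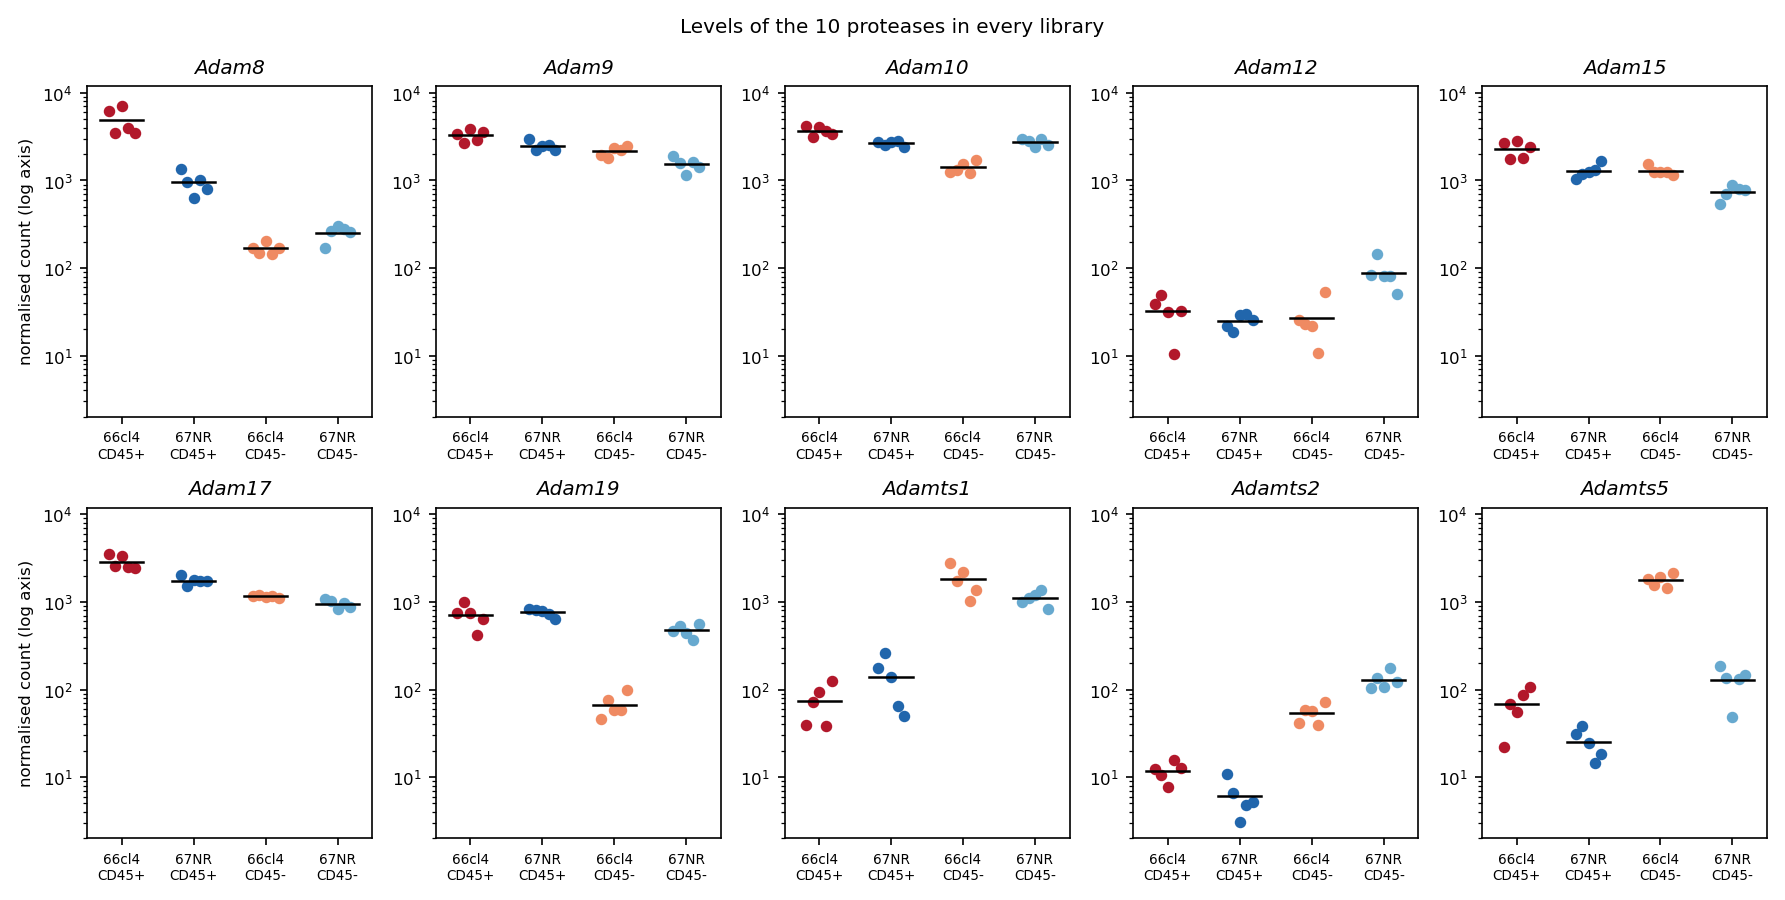
Normalised counts (log axis) of the 10 proteases, 1 point per library and a line at the mean of 5 animals, in the 66cl4 and 67NR CD45+ and CD45- groups. Adam8 is highest in 66cl4 CD45+ libraries (3446 to 7102), Adam19 is lowest in 66cl4 CD45- libraries (46.5 to 97.8), and Adamts5 is highest in 66cl4 CD45- libraries (1451 to 2121).

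Adam8 is a membrane-bound protease of myeloid cells that cleaves itself into its active form and sheds adhesion proteins. In 66cl4 CD45+ cells its level was 6259, 3527, 7102, 4026 and 3446 normalised counts in animals 3, 4, 5, 6 and 7. In 67NR CD45+ cells it was 1344, 956, 636, 1023 and 800 in animals 1, 4, 5, 6 and 7. The lowest 66cl4 library was above the highest 67NR library, and animals 3 and 5 were the highest. The log2 fold change was 2.36 ± 0.26 (adjusted p = 0.000197), with means of 4872 ± 1693 and 952 ± 265 normalised counts (SD, n = 5).

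In CD45- cells Adam8 was 167, 150, 203, 147 and 170 normalised counts in 66cl4 animals 3, 4, 5, 6 and 7, and 170, 263, 305, 277 and 256 in 67NR animals 1, 4, 5, 6 and 7. The groups overlapped only through 67NR animal 1. The log2 fold change was -0.57 ± 0.15 (adjusted p = 0.00414), which passed the p-value but not the fold threshold. The tumour difference of Adam8 was thus positive in CD45+ and negative in CD45- cells, and the difference between the gates was 2.94 ± 0.31 on the log2 scale (adjusted p = 2.65e-07). In CD45- cells 3 of 6 pan-leukocyte and 2 of 6 tested neutrophil markers were called lower in 66cl4. So were 4 of 7 macrophage and 3 of 4 tested monocyte markers, and 0 of these were higher. Of T, B and NK cell markers tested there, 1, 0 and 0 were lower and 0, 1 and 1 higher. Of all genes tested there, 18.9% were called lower. The part of leukocytes in this CD45- difference was not tested.

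Within an animal, Adam8 was 20.3 to 37.4 times higher in CD45+ than in CD45- cells of 66cl4 tumours and 2.09 to 7.89 times higher in 67NR tumours, with log2 fold changes of 4.83 ± 0.23 (adjusted p = 4.76e-09) and 1.91 ± 0.21 (adjusted p = 1.17e-05). Its mean in CD45- cells was 3.44% of that in CD45+ cells in 66cl4 and 26.7% in 67NR tumours. For the 6 pan-leukocyte markers, such as Ptprc and Cd53, this share was 0.322 to 0.873% in 66cl4 against 0.990 to 2.34% in 67NR tumours. Shares of the 8 neutrophil markers were more spread out. For 67NR their median was 1.69% and their highest 35.4%, which is above the share of Adam8. For 66cl4 their median was 0.221% and their highest 2.21%, which is below the share of Adam8.

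Markers of neutrophils were, like Adam8, higher in 66cl4 CD45+ cells. Of 8 neutrophil markers, 7 were called higher in 66cl4 CD45+ cells and 0 lower, with a median log2 fold change of 2.03. Their summed level was 127170, 66789, 140430, 122686 and 48727 normalised counts in 66cl4 CD45+ cells of animals 3, 4, 5, 6 and 7, and 54531, 28404, 18132, 16566 and 7547 in 67NR CD45+ cells of animals 1, 4, 5, 6 and 7. The sums of the 2 tumours overlapped through 66cl4 animal 7 and 67NR animal 1. The levels of Adam8 did not overlap, and neither did those of 3 of the 8 markers taken singly. None of the 8 was at 0 in every library of either CD45+ group. Trem1, a receptor of neutrophils and monocytes, had 9647 ± 4513 normalised counts in 66cl4 and 1773 ± 1014 in 67NR CD45+ cells (log2 fold change 2.43 ± 0.47, adjusted p = 0.00489), and Cxcr2, a chemokine receptor of neutrophils, 5680 ± 1751 and 1401 ± 870 (2.01 ± 0.42, adjusted p = 0.00724). Of 7 macrophage markers 0 were called higher and 1, Adgre1, lower (log2 fold change -1.11 ± 0.16, adjusted p = 0.000672), and of 5 monocyte markers 0 were higher and 2 lower, among them Plac8 (-1.22 ± 0.26, adjusted p = 0.00577). The summed macrophage markers were 46966 to 70900 normalised counts in 66cl4 against 70221 to 103917 in 67NR CD45+ cells. Of 5 B cell markers 0 were called, although their median log2 fold change was 2.97, and of 6 T cell markers 0 were called. All 3 NK cell markers tested were called lower, with a median of -2.51. The part of cell composition in the difference of Adam8 was not tested.

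The 250 bases before the start of Adam8 are shown as those of the protease with the largest CD45+ difference, beside those of Adamts1, the secreted protease with the highest CD45- levels per length, and of Adam10, a protease with high levels in all 4 groups. They are RefSeq promoters on GRCm38.p6, printed 5′ to 3′ on the strand of the gene, and capitals mark matches on either strand to the GC box motif GGGCGG, the CCAAT motif or the TATA box motif TATAAA. Adam8 lies on the minus strand, with this stretch at chr7:139992563-139992812, Adam10 on the plus strand, at chr9:70678732-70678981, and Adamts1 on the minus strand, at chr16:85803114-85803363.
Adam8: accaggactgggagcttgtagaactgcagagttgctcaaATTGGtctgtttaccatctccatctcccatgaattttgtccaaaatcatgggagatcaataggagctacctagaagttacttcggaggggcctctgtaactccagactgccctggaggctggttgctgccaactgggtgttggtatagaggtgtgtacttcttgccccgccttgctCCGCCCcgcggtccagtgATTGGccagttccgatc
Adam10: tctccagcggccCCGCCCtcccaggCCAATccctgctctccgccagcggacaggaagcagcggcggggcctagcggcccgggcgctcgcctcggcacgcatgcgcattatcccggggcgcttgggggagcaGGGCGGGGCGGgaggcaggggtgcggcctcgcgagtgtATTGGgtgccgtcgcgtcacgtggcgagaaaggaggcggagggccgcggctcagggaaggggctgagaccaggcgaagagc
Adamts1: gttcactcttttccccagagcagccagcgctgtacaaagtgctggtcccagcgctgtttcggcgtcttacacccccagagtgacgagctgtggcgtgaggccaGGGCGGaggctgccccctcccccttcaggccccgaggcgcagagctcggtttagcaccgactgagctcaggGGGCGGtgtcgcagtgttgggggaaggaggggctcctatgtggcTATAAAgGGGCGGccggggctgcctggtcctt
Adam8 held 1 GC box and 2 CCAAT matches, Adam10 held 3 GC box and 2 CCAAT matches of which 2 GC box matches share 1 base, and Adamts1 held 3 GC box matches and 1 TATA box match. In all 32851 RefSeq promoters of this length the GC box motif was found in 32.74%, CCAAT in 33.85% and TATAAA in 12.37%. The AP-1 motif TGANTCA and the ETS-type motif GAGGAA, found in 6.749% and 23.25% of them, had no match in these 3 stretches. The shorter ETS core GGAA was not searched for. The share of G and C was 52.8% in Adam8, 74.0% in Adam10 and 65.6% in Adamts1.

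Adam10 and Adam17 are the principal sheddases of most cells. ADAM10 releases Notch, cadherins and several growth factors, and ADAM17 releases TNF and ligands of the EGF receptor. Adam10 was 4191, 3154, 4070, 3665 and 3426 normalised counts in 66cl4 CD45+ cells of animals 3, 4, 5, 6 and 7 and 2747, 2564, 2727, 2820 and 2439 in 67NR CD45+ cells of animals 1, 4, 5, 6 and 7. The groups did not overlap, but the log2 fold change of 0.49 ± 0.11 (adjusted p = 0.00907) was below the fold threshold.

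In CD45- cells Adam10 was 1266, 1332, 1528, 1224 and 1702 normalised counts in 66cl4 animals 3, 4, 5, 6 and 7 and 2951, 2795, 2405, 3004 and 2525 in 67NR animals 1, 4, 5, 6 and 7. All 66cl4 libraries lay below all 67NR libraries, with a log2 fold change of -0.92 ± 0.10 (adjusted p = 2.72e-06), again below the fold threshold. The tumour difference was thus of opposite sign in the 2 gates and differed between them by 1.42 ± 0.14 on the log2 scale (adjusted p = 1.70e-07). In 66cl4 tumours Adam10 was 2.01 to 3.31 times higher in CD45+ than in CD45- cells of the same animal (log2 fold change 1.36 ± 0.11, adjusted p = 3.26e-07). In 67NR tumours the ratio was 0.917 to 1.13, and the log2 fold change of -0.042 had a 95% interval of -0.23 to 0.14 (adjusted p = 0.713).

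Adam17 was 3501, 2570, 3393, 2497 and 2413 normalised counts in 66cl4 CD45+ cells of animals 3, 4, 5, 6 and 7 and 2017, 1521, 1789, 1720 and 1715 in 67NR CD45+ cells of animals 1, 4, 5, 6 and 7. These groups did not overlap (log2 fold change 0.72 ± 0.14, adjusted p = 0.00350). In CD45- cells it was 1108 to 1196 normalised counts in 66cl4 against 825 to 1082 in 67NR tumours, where the groups were also apart, by 0.31 ± 0.09 on the log2 scale (adjusted p = 0.00552). Neither difference passed the fold threshold. The 66cl4 CD45- libraries were the tightest group of all 10 proteases, with a coefficient of variation of 3.12%. The difference between the gates was 0.42 ± 0.15 on the log2 scale (adjusted p = 0.0321), and 17 of 27 alternatives took it past 0.05, up to an adjusted p of 0.192. Adam17 was higher in CD45+ than in CD45- cells by 2.15 to 2.99 times in 66cl4 tumours (log2 fold change 1.28 ± 0.12, adjusted p = 5.88e-07) and by 1.49 to 2.17 times in 67NR tumours (0.88 ± 0.11, adjusted p = 2.46e-05, under the fold threshold).

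Adam9 and Adam15 are membrane-bound proteases of many cell types, and ADAM15 also carries an integrin-binding sequence in its disintegrin domain. Adam9 was 2704 to 3906 normalised counts in 66cl4 CD45+, 2228 to 2970 in 67NR CD45+, 1824 to 2486 in 66cl4 CD45- and 1167 to 1882 in 67NR CD45- cells. Neighbouring tumour groups overlapped in both gates, with log2 fold changes of 0.42 ± 0.14 in CD45+ (adjusted p = 0.0454) and 0.53 ± 0.12 in CD45- cells (adjusted p = 0.00176). Adam15 was 1745 to 2800 normalised counts in 66cl4 CD45+, 1035 to 1688 in 67NR CD45+, 1159 to 1540 in 66cl4 CD45- and 541 to 882 in 67NR CD45- cells. Its tumour groups did not overlap in either gate, with log2 fold changes of 0.84 ± 0.16 (adjusted p = 0.00342) and 0.83 ± 0.12 (adjusted p = 3.90e-05).

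Adam9 and Adam15 were the 2 proteases whose tumour difference did not pass the test between the gates. For Adam9 the difference between the gates was -0.094 on the log2 scale, with a 95% interval of -0.45 to 0.27 (adjusted p = 0.707). For Adam15 it was 0.0065, with an interval of -0.42 to 0.44 (adjusted p = 0.988). Between the gates both were higher in CD45+ cells of 5 of 5 animals of either tumour, by 1.31 to 2.13 times for Adam9 and 1.39 to 2.26 times for Adam15, below the fold threshold.

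Adam19 and Adam12, the meltrins beta and alpha, are membrane-bound proteases. ADAM19 sheds neuregulin, and Adam12 is known from fibroblasts and regenerating muscle. Adam19 separated the non-immune cells of the tumours. It was 46.5, 76.1, 58.3, 58.4 and 97.8 normalised counts in 66cl4 CD45- cells of animals 3, 4, 5, 6 and 7 and 462, 536, 440, 364 and 562 in 67NR CD45- cells of animals 1, 4, 5, 6 and 7. No library overlapped, and the log2 fold change was -2.76 ± 0.19 (adjusted p = 1.53e-08).

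In CD45+ cells Adam19 was 744, 997, 748, 424 and 635 normalised counts in 66cl4 animals 3, 4, 5, 6 and 7 and 638 to 827 in 67NR animals. The groups overlapped, with a log2 fold change of -0.091 and a 95% interval of -0.47 to 0.29 (adjusted p = 0.783). The sign of this value turned without 66cl4 CD45+ animal 6, at 0.050. The difference between the gates was 2.69 ± 0.28 on the log2 scale (adjusted p = 2.56e-07). Within an animal Adam19 was 6.49 to 16.0 times higher in CD45+ than in CD45- cells of 66cl4 tumours (log2 fold change 3.36 ± 0.25, adjusted p = 1.26e-07) and 1.13 to 2.01 times higher in 67NR tumours (0.69 ± 0.14, adjusted p = 0.000866). Its CD45- mean was 9.50% of the CD45+ mean in 66cl4 and 62.1% in 67NR tumours, against pan-leukocyte marker shares of at most 0.873% and 2.34%.

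Adam12 had few counts. It was 10.6, 21.6, 23.1, 25.2 and 52.9 normalised counts in the 66cl4 CD45- libraries of animals 6, 5, 4, 3 and 7, and 51.1, 80.5, 81.7, 83.4 and 144 in the 67NR CD45- libraries of animals 7, 6, 5, 1 and 4. The groups overlapped through animal 7 of either tumour, and the log2 fold change was -1.69 ± 0.36 (adjusted p = 0.000882). In CD45+ cells it was 10.5 to 49.7 in 66cl4 against 18.7 to 30.0 in 67NR tumours (0.39 ± 0.36, adjusted p = 0.476). The difference between the gates was 2.08 ± 0.53 on the log2 scale (adjusted p = 0.00386). In 67NR tumours Adam12 was lower in CD45+ than in CD45- cells of 5 of 5 animals (log2 fold change -1.81 ± 0.27, adjusted p = 0.000122), and in 66cl4 tumours it was higher in 3 of 5 (0.27 ± 0.43, adjusted p = 0.589).

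**Figure D2:**
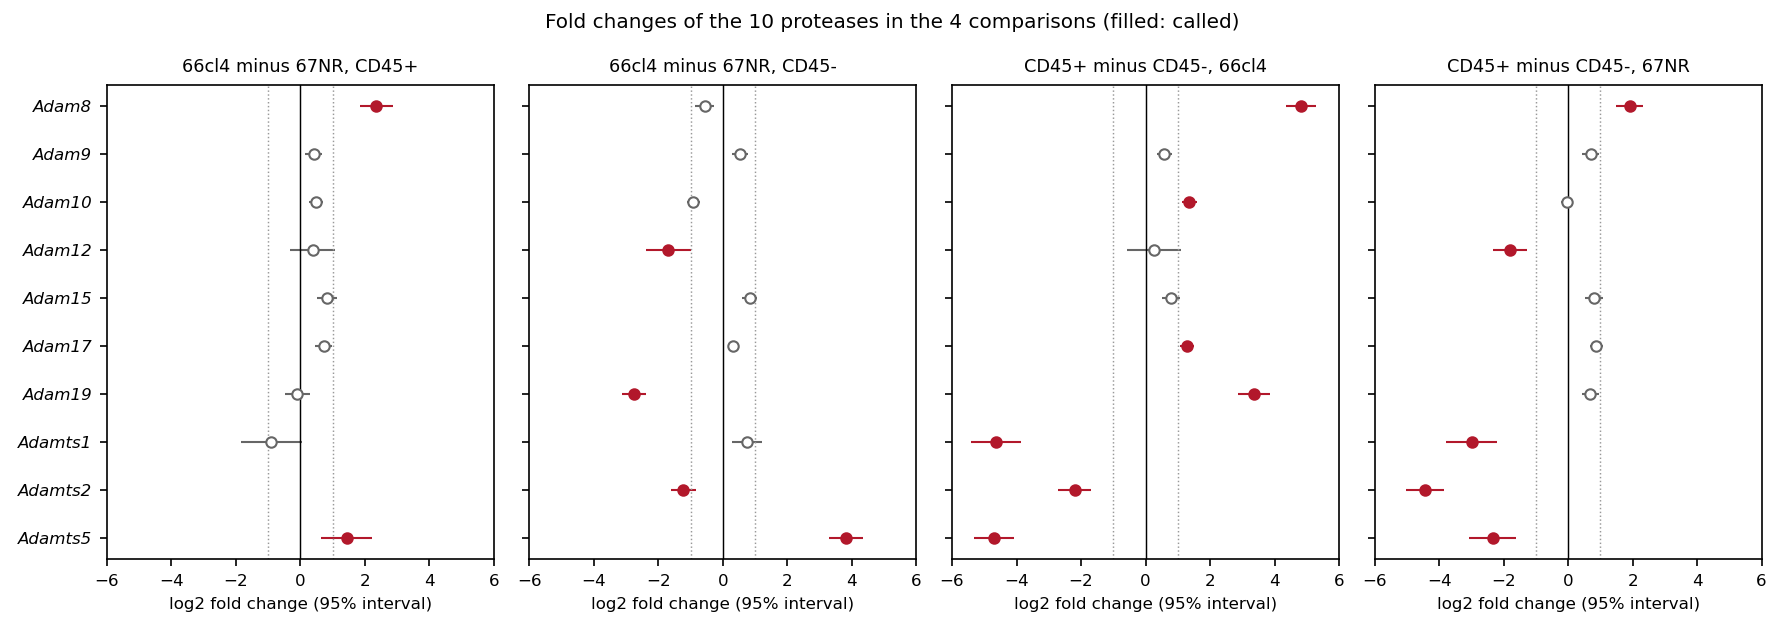
Log2 fold changes of the 10 proteases (x axis, point with approximate 95% interval) in the 4 comparisons, 1 panel each, with filled points for called genes and dotted lines at an absolute log2 fold change of 1. Adamts2 was not tested between the CD45+ groups, and the 3 secreted proteases lie to the left of 0 in both comparisons between gates.

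Adamts5 and Adamts1 are secreted proteases that cut the proteoglycans aggrecan and versican, and ADAMTS5 is the main aggrecanase of mouse cartilage. Adamts5 was 1845, 1547, 1953, 1451 and 2121 normalised counts in 66cl4 CD45- cells of animals 3, 4, 5, 6 and 7 and 184, 137, 49.2, 130 and 145 in 67NR CD45- cells of animals 1, 4, 5, 6 and 7. Every 66cl4 library was far above every 67NR library, with a log2 fold change of 3.82 ± 0.27 (adjusted p = 1.94e-07), or 13.8 times on the means.

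In CD45+ cells Adamts5 was 22.3, 67.8, 55.0, 87.3 and 107 normalised counts in 66cl4 animals 3, 4, 5, 6 and 7 and 31.2, 38.5, 24.4, 14.4 and 18.5 in 67NR animals 1, 4, 5, 6 and 7. The groups overlapped through 66cl4 animal 3. The log2 fold change of 1.44 ± 0.41 was called (adjusted p = 0.0254), but the call was lost without 66cl4 CD45+ animal 6 (adjusted p = 0.0505) or 7 (0.0625) and without 67NR CD45+ animal 5 (0.0604) or 6 (0.0562), and without both 66cl4 animals of conflicting labels (0.0837). The mean in CD45+ cells was 3.81% of that in CD45- cells in 66cl4 tumours and 19.6% in 67NR tumours. The difference between the gates was -2.34 ± 0.50 on the log2 scale (adjusted p = 0.000907).

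Adamts1 was 2799, 1735, 2193, 1030 and 1381 normalised counts in 66cl4 CD45- cells of animals 3, 4, 5, 6 and 7 and 1009, 1121, 1217, 1371 and 822 in 67NR CD45- cells of animals 1, 4, 5, 6 and 7. The groups overlapped, with a log2 fold change of 0.75 ± 0.24 (adjusted p = 0.0160) below the fold threshold. In CD45+ cells it was 37.9 to 127 normalised counts in 66cl4 against 50.4 to 263 in 67NR tumours (-0.90 ± 0.49, adjusted p = 0.219). The difference between the gates was -1.61 ± 0.55 on the log2 scale (adjusted p = 0.0242), and it no longer passed without 67NR CD45+ animal 4 (adjusted p = 0.0706), the highest of its group, or without 66cl4 animals 5 and 6 (0.0687). Adamts1 was 10.9 to 71.9 times higher in CD45- than in CD45+ cells of a 66cl4 tumour and 4.27 to 21.2 times higher in 67NR tumours, with log2 fold changes from CD45- to CD45+ cells of -4.63 ± 0.39 (adjusted p = 5.94e-07) and -2.99 ± 0.40 (adjusted p = 5.47e-05).

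Adamts2 removes the amino-terminal propeptide of fibrillar procollagens, which lets collagen fibres form. It was 41.1, 58.0, 56.6, 39.3 and 71.9 normalised counts in 66cl4 CD45- cells of animals 3, 4, 5, 6 and 7 and 105, 137, 108, 174 and 122 in 67NR CD45- cells of animals 1, 4, 5, 6 and 7. The groups did not overlap, and the log2 fold change was -1.23 ± 0.20 (adjusted p = 8.28e-05). In CD45+ cells it was 7.71 to 15.8 normalised counts in 66cl4 against 3.05 to 10.9 in 67NR tumours, too few to pass the filter on low counts, so it was not tested there. In the 9 alternatives that did test it, its log2 fold change was 0.81 to 1.25, and 2 of them called it higher in 66cl4. Its gate difference was -2.20 ± 0.26 in 66cl4 (adjusted p = 6.78e-06) and -4.43 ± 0.30 in 67NR tumours (adjusted p = 1.59e-07) on the log2 scale, and the difference between the gates in the tumour effect was 2.25 ± 0.39 (adjusted p = 0.000128).

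The levels of the secreted proteases in CD45+ cells were set beside those of fibroblast and epithelial markers. The CD45+ mean as a percentage of the CD45- mean was 3.81% for Adamts5, 4.04% for Adamts1 and 22.2% for Adamts2 in 66cl4 tumours, and 19.6%, 12.5% and 4.72% in 67NR tumours. For 8 fibroblast markers, such as Pdgfra and Dcn, the median of this share was 7.17% in 66cl4 and 14.0% in 67NR tumours, with a range of 4.03 to 736% and of 5.95 to 746%. The upper ends are Thy1, which T cells also express. The summed fibroblast markers were 656 to 1952 normalised counts in 66cl4 CD45+ against 2557 to 4322 in 67NR CD45+ cells, and 7540 to 9671 and 10160 to 14693 in the CD45- cells. The summed epithelial markers differed the other way between the CD45+ groups, at 107 to 595 normalised counts in 66cl4 CD45+ libraries and 44.3 to 64.0 in those of 67NR, where 2 of the 6 were at 0 in every library. Of the 3 tested in CD45+ cells 2 were called higher in 66cl4 and 0 lower. Those higher were Krt8 (log2 fold change 4.87 ± 0.55, adjusted p = 0.000270) and Krt18 (3.18 ± 0.58, adjusted p = 0.00277). The other tested marker, Epcam, went the other way without being called (-0.91 ± 0.34, adjusted p = 0.0734). The CD45+ share of the CD45- mean was 5.09 to 142% over the 6 epithelial markers in 66cl4 tumours, with Krt18 at the lower end. How much of the Adamts1, Adamts2 and Adamts5 counts in CD45+ libraries came with such cells was not tested.

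**Figure D3:**
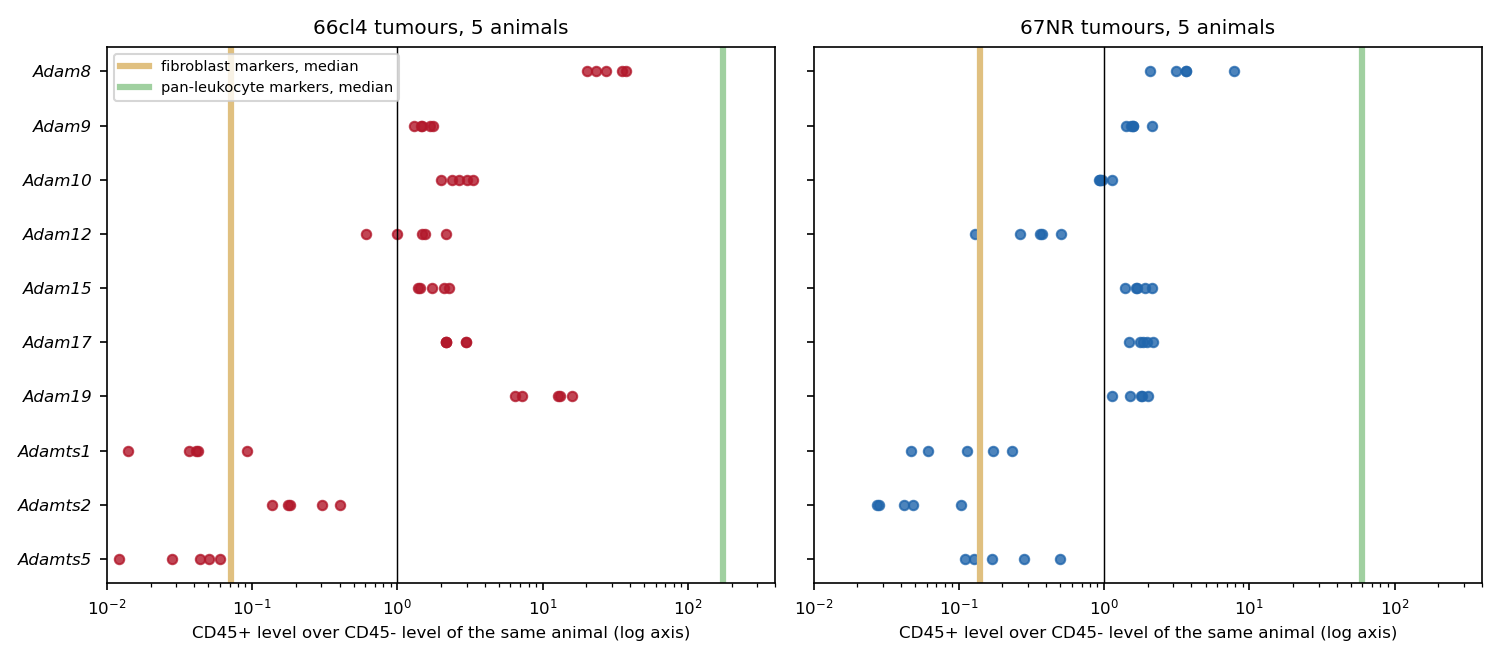
Ratio of the CD45+ to the CD45- level in the same animal (log axis) for the 10 proteases, 1 point per animal, in 66cl4 and 67NR tumours, with coloured lines at the median, over 8 fibroblast or 6 pan-leukocyte markers, of the ratio of group means. Adamts1, Adamts2 and Adamts5 lie left of 1 in every animal, and Adam8 lies right of 1 but left of the leukocyte markers, with ratios of 20.3 to 37.4 in 66cl4 against 2.09 to 7.89 in 67NR tumours.

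The CD45- cells of the tumours also differed in markers of their own cell types. Of 6 epithelial markers 4 were tested there, and the keratin genes Krt8 and Krt18 were called higher in 66cl4 and Epcam lower. Krt8 was 4886 to 5575 normalised counts in 66cl4 against 31.5 to 109 in 67NR CD45- cells (log2 fold change 6.47 ± 0.27, adjusted p = 9.41e-10), and the summed epithelial markers were 6036 to 6822 against 103 to 334. All 6 endothelial markers were called lower in 66cl4, with summed levels of 108 to 337 against 755 to 3272, among them Kdr, a receptor for VEGF (log2 fold change -3.70 ± 0.60, adjusted p = 0.000280). Of 8 fibroblast markers 1, Pdgfrb, was higher (1.37 ± 0.19, adjusted p = 3.51e-05) and 4 were lower, with Dpt at 35.7 ± 15.2 against 4261 ± 456 normalised counts. These moved with Adamts5, Adam19, Adam12 and Adamts2 between the same libraries, and their part in those differences was not tested.

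**Figure D4:**
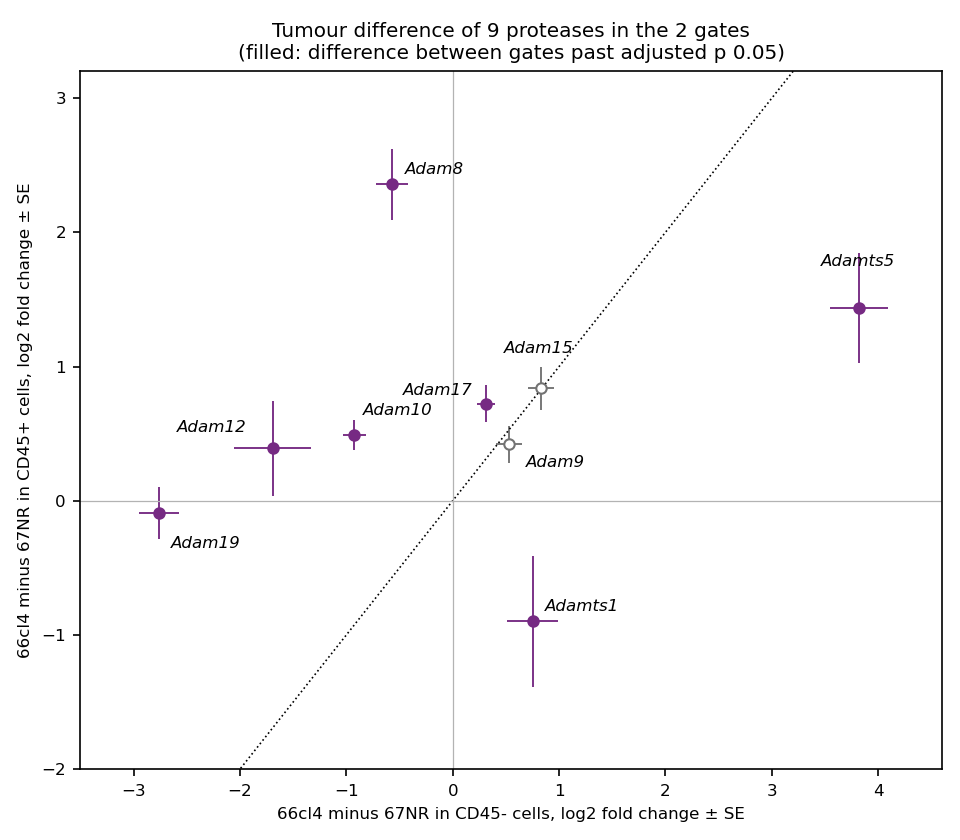
Log2 fold change between tumours in CD45+ cells (y axis) against that in CD45- cells (x axis) for the 9 proteases tested in both, each with its standard error. Points on the dotted line have the same tumour difference in both gates. Adam9 and Adam15 lie near it, and the other 7 are filled because their difference between the gates passed an adjusted p of 0.05.

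The test of the tumour difference between the gates passed for 8 of the 10 proteases, where 43.1% of 16453 genes tested passed. Of these 8, Adam17 no longer passed in 17 of 27 alternatives and Adamts1 in 3. For 6 the difference between gates was positive (Adam8, Adam10, Adam12, Adam17, Adam19 and Adamts2), and for Adamts1 and Adamts5 it was negative. The 2 tumour comparisons have no library in common.

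Levels can be compared between genes after division by transcript length, here the mean length of a gene's protein-coding transcripts in GENCODE M21. In 66cl4 CD45+ cells the order was Adam8 at 1711 normalised counts per kilobase, Adam10 at 1419, Adam9 at 1070, Adam17 at 885, Adam15 at 883, Adam19 at 111, Adamts1 at 20.4, Adam12 at 10.5, Adamts5 at 6.30 and Adamts2 at 1.63. Neighbours in this order overlapped in range over libraries, except Adam15 and Adam19, and Adam19 and Adamts1. In 67NR CD45+ cells Adam8 was the fifth, at 334 per kilobase, behind Adam10 at 1020, Adam9 at 805, Adam17 at 539 and Adam15 at 501, and its range overlapped that of Adam15.

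In 66cl4 CD45- cells the 4 highest were Adam9 at 699 normalised counts per kilobase, Adam10 at 541, Adamts1 at 506 and Adam15 at 499, each overlapping with the next. In 67NR CD45- cells Adam10 at 1049 stood above all others without overlap, before Adam9 at 496, Adamts1 at 307, Adam17 at 293 and Adam15 at 287. Adamts5 was the sixth in 66cl4 CD45- cells, at 165 per kilobase and apart from both neighbours, and the last in 67NR CD45- cells, at 12.0, where it overlapped with Adamts2 at 17.8. The order of close neighbours depends on the length used. With the longest transcript Adam9 ranked above Adam10 in both CD45+ groups, whereas with the mean length Adam10 ranked above Adam9.

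Of 47 further Adam, Adamts and Adamtsl genes in the table, 15 were tested in CD45+ cells, of which 0 were higher and 7 lower in 66cl4, with a median log2 fold change of -0.72. The larger named ones were Adamtsl3, a secreted ADAMTS-like protein without protease domain, at 4.95 ± 3.74 against 211 ± 124 normalised counts (log2 fold change -5.43 ± 0.68, adjusted p = 0.000452), and Adamts12 at 6.73 ± 5.30 against 58.8 ± 34.1 (-3.04 ± 0.59, adjusted p = 0.00401). In CD45- cells 18 were tested, of which 3 were higher and 9 lower, with a median of -1.01. Of all genes tested, 5.01% were called higher and 6.82% lower in CD45+ cells, and 13.2% and 18.9% in CD45- cells. These shares apply to the lists below as well. Adamtsl3 was 1005 to 1472 normalised counts in 67NR CD45- cells, and no 66cl4 CD45- library held more than 2 counts of it. Adamts9, a protease that cuts versican, was 31.3 ± 19.3 against 628 ± 119 (-4.31 ± 0.37, adjusted p = 1.21e-06). Adamtsl2 was higher in 66cl4, at 53.9 ± 18.7 against 6.18 ± 5.48 (3.10 ± 0.49, adjusted p = 7.22e-05), and so was Adamts10, which acts on fibrillin microfibrils, at 67.1 ± 12.0 against 12.9 ± 4.81 (2.38 ± 0.26, adjusted p = 1.66e-06).

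The 17 genes listed for maturation and inhibition of the proteases include the iRhom and FRMD8 partners of ADAM17, the TspanC8 tetraspanins that carry ADAM10 to the surface, proprotein convertases, the inhibitors Timp1, Timp3 and Reck, and the clearance receptor Lrp1. In CD45+ cells 14 were tested, and 1 was higher (Timp1) and 1 lower (Rhbdf1, which encodes iRhom1, with a log2 fold change of -1.59 ± 0.38 and adjusted p = 0.0125). In CD45- cells 15 were tested, with 3 higher and 4 lower, where 13.2% and 18.9% of all genes tested were. The tetraspanins Tspan15 and Tspan14 were higher in 66cl4 CD45- cells, at 649 ± 71.5 against 273 ± 43.7 and 470 ± 26.9 against 235 ± 34.3 normalised counts (log2 fold changes 1.28 ± 0.12 and 1.03 ± 0.11, adjusted p = 4.70e-07 and 1.11e-06). Timp3, an inhibitor of ADAM17 and of ADAMTS4 and ADAMTS5 bound to the matrix, was lower, at 92.8 ± 41.2 against 336 ± 105 (-1.81 ± 0.35, adjusted p = 0.000824), and so was Lrp1, the endocytic receptor that clears ADAMTS5, at 10270 ± 2316 against 32260 ± 3231 (-1.62 ± 0.14, adjusted p = 2.03e-07).

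Among 15 ligands shed by ADAM10 or ADAM17, 3 were higher and 5 lower in 66cl4 CD45+ cells, with a median log2 fold change of -0.67 over the 15 tested. Areg, which encodes the EGF receptor ligand amphiregulin, was 246 to 1083 normalised counts in 66cl4 against 78.0 to 179 in 67NR CD45+ cells (2.22 ± 0.42, adjusted p = 0.00431), and Jag1, a Notch ligand, was also higher (1.28 ± 0.24, adjusted p = 0.00302). Btc and Kitl, the genes of betacellulin and of stem cell factor, were lower (-4.91 ± 0.68 and -3.90 ± 0.53, adjusted p = 0.000843 and 0.000767). In CD45- cells 12 were tested, and 2 were higher and 6 lower, where 13.2% and 18.9% of all genes tested were. Areg was 187 to 414 against 12.8 to 27.3 normalised counts (3.77 ± 0.25, adjusted p = 1.41e-08), and Csf1, a growth factor of macrophages, 9979 to 12078 against 3021 to 3672 (1.72 ± 0.09, adjusted p = 7.81e-10). Ereg, the gene of epiregulin, was 4.25 to 14.6 against 2716 to 4015 (-8.27 ± 0.21, adjusted p = 1.63e-12), and Btc was 79.2 ± 15.04 against 866 ± 109 (-3.41 ± 0.14, adjusted p = 8.69e-11).

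Of 21 receptors and adhesion proteins that ADAM proteases shed, 5 were higher and 3 lower in 66cl4 CD45+ cells. Alcam and L1cam, adhesion proteins of the immunoglobulin superfamily, were higher (2.01 ± 0.19 and 1.51 ± 0.23 on the log2 scale, adjusted p = 6.14e-05 and 0.000871). Vcam1, an adhesion protein of vessels and some macrophages, was lower, at 148 ± 39.8 against 2081 ± 817 normalised counts (-3.80 ± 0.29, adjusted p = 2.47e-05), and so was the receptor kinase Axl (-1.27 ± 0.17, adjusted p = 0.000535). In CD45- cells 19 were tested, with 2 higher and 3 lower, near the 13.2% and 18.9% of all genes tested. Alcam was again higher (2.82 ± 0.12, adjusted p = 1.27e-10), as was Trem2, a receptor of macrophages, at 131 ± 35.5 against 15.2 ± 7.87 (3.11 ± 0.33, adjusted p = 1.38e-06). L1cam was lower there, at 3.65 ± 2.01 against 122 ± 19.0 (-5.04 ± 0.30, adjusted p = 4.13e-09), and so was Notch1 (-1.58 ± 0.16, adjusted p = 8.98e-07).

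Of 13 matrix substrates and cofactors 9 were tested in either gate. In CD45+ cells 1 was higher and 2 lower, where 5.01% and 6.82% of all genes tested were. In CD45- cells 0 were higher and 7 lower, where 13.2% and 18.9% were, with a median log2 fold change of -2.45 over the 9. Vcan, which encodes versican, a substrate of ADAMTS1 and ADAMTS5, was higher in 66cl4 CD45+ cells, at 9071 to 24188 against 1224 to 5460 normalised counts (2.10 ± 0.42, adjusted p = 0.00595). It was lower in 66cl4 CD45- cells, at 72.2 to 188 against 8272 to 13296 (-6.59 ± 0.28, adjusted p = 7.36e-10). Fbln1, the gene of fibulin 1, a cofactor of ADAMTS1, was lower in both gates (-3.87 ± 0.56 and -4.05 ± 0.24, adjusted p = 0.000723 and 4.01e-09), and so was Nid1, the gene of the basement membrane protein nidogen 1 (-2.18 ± 0.51 in CD45+ and -3.03 ± 0.20 in CD45- cells, adjusted p = 0.0113 and 2.36e-08).

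The gene with the profile most like that of each protease was found by Pearson's correlation of log2 levels over the 20 libraries, among 12053 genes outside the families. These values describe the order of the 4 groups, since libraries of a group are alike and share their tumour and gate. They were 0.985 for Adam8 with Dpep2, 0.951 for Adam9 with Riok3, 0.973 for Adam10 with Mmp19, 0.879 for Adam12 with Ylpm1 and 0.965 for Adam15 with Bsdc1. For Adam17 with Gna13 it was 0.987, for Adam19 with Elac1 0.981, for Adamts1 with Maged1 0.986, for Adamts2 with Serping1 0.942 and for Adamts5 with Sema3a 0.984.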

How the data were processed

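RNA was measured by single-read sequencing of SENSE libraries. The authors used fastp for trimming, Salmon 1.3.0 for transcript quantification and tximport for gene sums, per the labels and their methods, and the deposited table holds these estimated counts, not normalised. GRCh38, the human build, is named in the methods, but the identifiers are of mouse. Symbols were found for 51492 of 52783 identifiers. Where genes are alike in sequence, Salmon can split a read between them.

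Samples were grouped by their titles. Estimated counts were rounded, which changed no value by more than 0.5. Groups were compared in R 4.3.3 with edgeR 4.0.16 (TMM and a robust fit). Only the compared groups entered a fit, and the difference between gates was an interaction over 20 libraries. The filter filterByExpr asked for 15 counts in total. It also asked for 10 counts, scaled to depth, in as many libraries as the smaller group has. Levels are counts over size factors from DESeq2 1.42.0. Scripts were tested on simulated data. Figures were drawn with matplotlib 3.10.9.

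The proteases and gene lists were chosen with earlier results of these data known. Besides the 10 proteases, the rule named, in each list and tumour comparison, the 2 called genes with the largest and the 2 with the smallest log2 fold change among those with at least 50 normalised counts in the higher group and libraries that do not overlap. For each protease it named the gene with the highest correlation. Timp1, Epcam, Pdgfra, Dcn, Thy1 and Cd53 are named as members of their lists, after their values were seen. The CD45+ and CD45- libraries that share a tumour and a number are of 1 animal, and their deviations from the group means correlated by 0.0242 to 0.148 (66cl4) and by -0.00308 to 0.324 (67NR). Between tumours only the number is shared. RefSeq promoters of GRCm38.p6 were matched by symbol for 7 of the 10 proteases. As alternatives, library totals, RLE factors, the Wald test of DESeq2, 2 other filters, all 20 libraries in a fit, the replicate number (for the interaction the animal) as a block, CPM levels, and leaving out 66cl4 animals 5 and 6 or each library were tried.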

Additional observations from a re-analysis of the deposited data

Results flagged for a closer look

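Adam15 in the 66cl4 CD45- library of animal 3, at 1540 normalised counts, stood apart from the other 4 libraries of the group, which were 1159 to 1262. Of 40 groups of 5 libraries examined this was 1, where chance gives about 2.

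The difference between tumours itself differed between the gates, by edgeR's interaction test, for 8 proteases. On the log2 scale, CD45+ minus CD45- cells, it was 2.94 for Adam8, 2.69 for Adam19, 2.25 for Adamts2, 2.08 for Adam12, 1.42 for Adam10, 0.42 for Adam17, -1.61 for Adamts1 and -2.34 for Adamts5. Those of Adam17 and Adamts1 no longer passed in 17 and 3 of 27 alternatives.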

How the results depend on the processing

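The number of proteases called between the CD45+ groups was 2, and 1 without 66cl4 animals 5 and 6. It was 1 to 3 when each library was left out in turn, and 3 with all 20 libraries in the fit. The lost call was Adamts5, whose adjusted p was 0.0837 without those animals. The added call was Adamts2, which then passed the filter and had an adjusted p of 0.0407 without 67NR CD45+ animal 1 and 0.0206 with all 20 libraries. Over the 9 alternatives that tested Adamts2 in CD45+ cells its adjusted p was 0.0206 to 0.230. The other 4 counts stayed within 1.5 times of their value under every alternative run. Leaving out 66cl4 animals 5 and 6 could not apply to the gates of 67NR tumours. With the replicate number as a block the counts were 2, 4, 7, 5 and 8, as without it, and it changed no call of a protease. In the tumour comparisons that fit kept only numbers found in both tumours, so 66cl4 animal 3 and 67NR animal 1 were left out. For the interaction the block was the animal. The log2 fold change of Adam19 between the CD45+ groups turned from -0.091 to 0.058 without 66cl4 animals 5 and 6 and to 0.050 without 66cl4 CD45+ animal 6, and ranged from -0.248 to 0.0498 when each library was left out. That of Adam10 between the gates of 67NR tumours was -0.042 and ranged from -0.103 to 0.0523 when each library was left out. The difference of Adam15 between gates turned from 0.0065 to -0.057 with library totals, -0.054 without a filter, -0.086 with 10 counts in 5 libraries and -0.011 with the animal as a block, and ranged from -0.17 to 0.12 over all alternatives. None of these was called. For Adam17 the difference between gates was 0.26 to 0.45 and lost its call in 17 of 27 alternatives, and for Adamts1 it was -2.02 to -1.23 and lost it in 3. Levels of low genes such as Adam12 and Adamts2 in CD45+ cells are limited by depth.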
